A study of Homo sapiens with 9 samples.

Results

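The transcripts of the ATP-binding cassette (ABC) transporters of subfamilies A to G were compared between A375 cells, an established human melanoma line, with SPANX knocked down and their controls. The members were the genes whose symbol is ABC, a letter A to G and a number, and which stood above 0 in at least 1 group: 32 of the 46 such symbols listed, among 14678 gene IDs above 0 in at least 1 group. Subfamily A contributed 8 members, B and C 7 each, D, F and G 3 each, and E 1. The symbols listed at 0 in all 9 libraries were ABCA4, ABCA8, ABCA9, ABCA12, ABCB5, ABCB11, ABCC6, ABCC8, ABCC11, ABCC12, ABCC13, ABCD2, ABCG5 and ABCG8. A 0 across a whole group means that a gene was filtered out by the authors, not that it was silent. Of the 32 members, 30 stood above 0 in all 3 groups and were tested, while ABCA6 and ABCG4 are listed at 0 in all 3 SPANX KD 87 libraries.

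The 9 libraries fall into groups of 3: SPANX KD 86, SPANX KD 87 and the EV control, all from A375 cells, with RNA taken 7 days after knockdown. All libraries were 3′ end libraries, in which a transcript gives reads from its 3′ end, so levels of different genes are not compared below. The labels do not say what distinguishes the knockdowns 86 and 87, whether each is a pool or a clone, or whether the 3 replicates came from separate cultures, so each p-value reflects how much these particular libraries vary, and that variation could be technical alone. The same EV libraries serve both knockdown comparisons, which are therefore not independent. In a bulk library, fewer cells of a type and less RNA per cell cannot be told apart.

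ABC proteins bind and hydrolyse ATP at a pair of nucleotide-binding domains. In subfamilies A to D and G these domains drive the movement of lipids, sterols, drugs, peptides, metabolites or conjugates across a membrane, and half-transporters pair up to form a working unit. Proteins of subfamilies E and F have no membrane-spanning part and act on ribosomes and translation. In melanoma the family is studied chiefly for its drug-efflux pumps, and ABCB5 as a marker of a subset of tumour cells.

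Levels are normalised reads on a scale common to the 9 libraries, and fold changes are on the log2(value + 1) scale from limma, with p-values adjusted by the Benjamini-Hochberg method over 13825 genes and a threshold of 0.05. The recovered reads of a library summed to 11310750 to 15564093. These totals are approximate, since the deposited values were rounded, and they leave out genes filtered out by the authors. The targeted genes were lower in both knockdowns. SPANXC had 102, 35.3 and 42.4 normalised reads in KD 86 and 25.4, 18.1 and 33.8 in KD 87, against 402, 151 and 514 in EV. SPANXD had at most 0.974 in KD 86 and at most 7.17 in KD 87, against 27.6 to 103 in EV, with the reservation that the SPANX copies are near-identical and reads may be split between them. The melanocyte genes MLANA, TYR, TYRP1 and DCT were listed at 0 in all libraries, and 4 of the 8 melanocyte markers were measured. Their summed level, mostly SOX10, was 14040 to 20420 in KD 86 and 8203 to 12450 in KD 87, against 3102 to 6634 in EV. Of the 4, 1 passed the threshold with each knockdown, SOX10, at log2 fold changes of 2.24 with KD 86 (adjusted p = 0.00112) and 1.53 with KD 87 (0.0223), by limma. With KD 86, S100B had 0.78 (adjusted p = 0.221), MITF -0.11 (0.780) and PMEL -0.78 (0.334), and with KD 87 S100B had 1.47 (0.0749), MITF 0.33 (0.451) and PMEL 0.64 (0.526). S100B passed with KD 87 with the replicate block (adjusted p = 0.00898), and with both knockdowns with the trend over transcript length removed (0.0294 with KD 86 and 0.0189 with KD 87). The summed level of the 7 fibroblast markers tested was 1300 to 1582 in KD 86 and 890.9 to 1113 in KD 87, against 447.5 to 540.7 in EV: 5 rose with KD 86 and 2 with KD 87, against 18.0% and 5.92% of all genes, and 0 fell. COL1A2 had -0.65 with KD 86 (adjusted p = 0.276) and 0.53 with KD 87 (0.466). COL3A1 was not tested, since it was at 0 in a whole group. The part of these shifts in the results below was not tested.

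Past the threshold, 10 of the 30 members changed with KD 86 relative to EV (6 rose, 4 fell), or 33.3%, against 35.6% of all genes tested (18.0% rose, 17.6% fell). With KD 87, 10 of the 30 changed relative to EV (5 rose, 5 fell), against 10.4% of all genes (5.92% rose, 4.43% fell). Between KD 86 and KD 87, 8 of the 30 differed (5 higher and 3 lower in KD 86), against 25.5% of all genes (12.9% higher, 12.7% lower). The median log2 fold change of the members was 0.12 for KD 86, 0.09 for KD 87 and 0.07 for KD 86 over KD 87, against -0.04, -0.00028 and -0.02 over all genes. All 3 KD 86 libraries lay above all 3 EV libraries for 9 members and below them for 6 (45.3% of all genes did not overlap, 22.5% above and 22.8% below). The KD 87 libraries lay above EV for 6 members and below for 7 (29.2% of all genes, 15.2% above and 14.0% below), and the KD 86 libraries lay above the KD 87 libraries for 7 and below for 3 (45.2% of all genes, 22.4% above and 22.9% below). The replicate numbers pair the libraries, and with the replicate as a block 15, 14 and 10 members passed the threshold, against 55.3%, 31.0% and 44.1% of all genes.

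**Figure D1:**
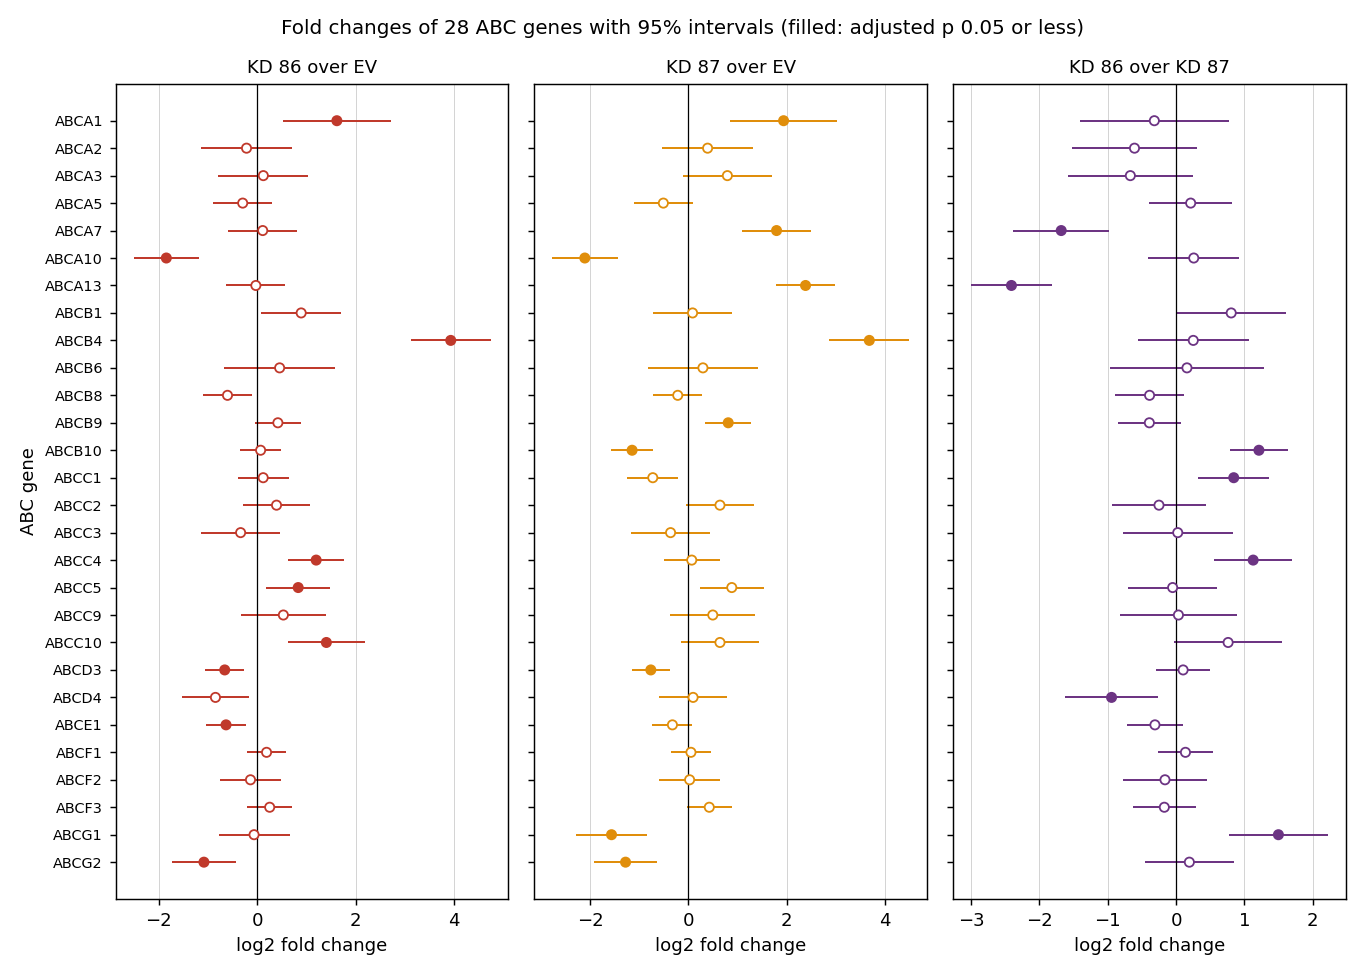
Log2 fold changes (horizontal axis) of 28 tested ABC genes (rows, by subfamily A to G) for KD 86 over EV, KD 87 over EV and KD 86 over KD 87, with 95% intervals; filled points passed an adjusted p of 0.05. ABCB4 lies farthest to the right in both comparisons with EV, at 3.93 and 3.68, and ABCA10 farthest to the left, at -1.85 and -2.11.

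ABCA1, ABCA10, ABCB4, ABCD3 and ABCG2 passed the threshold in each comparison with EV, and ABCB4 was not matched to a promoter. Among the others only ABCA1 was higher in the knockdowns, so higher and lower genes cannot be compared as sets. The promoters of ABCA1, ABCA10, ABCD3 and ABCG2 are shown to describe their base composition and motifs. Each is given as the 250 bases before the first transcript start that RefSeq lists (build GRCh38.p14), written 5′ to 3′ on the gene's strand. Capitals mark every match, on either strand, to the GC box GGGCGG, the E-box CACGTG, the AP-1 site TGANTCA, the cyclic AMP element TGACGTCA, the FOXO site GTAAACA or the CCAAT box. The windows are chr9:104928156-104928405 (minus strand), chr17:69244849-69245098 (minus), chr1:94418139-94418388 (plus) and chr4:88231627-88231876 (minus), in the order printed.
ABCA1: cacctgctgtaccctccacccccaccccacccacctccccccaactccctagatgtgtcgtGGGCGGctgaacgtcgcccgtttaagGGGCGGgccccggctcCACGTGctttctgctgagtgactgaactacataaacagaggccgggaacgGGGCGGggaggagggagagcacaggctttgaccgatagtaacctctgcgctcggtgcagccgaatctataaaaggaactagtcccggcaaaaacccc
ABCA10: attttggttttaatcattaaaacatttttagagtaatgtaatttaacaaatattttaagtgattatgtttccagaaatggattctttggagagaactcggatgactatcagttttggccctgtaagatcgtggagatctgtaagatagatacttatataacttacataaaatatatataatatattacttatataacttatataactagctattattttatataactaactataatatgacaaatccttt
ABCD3: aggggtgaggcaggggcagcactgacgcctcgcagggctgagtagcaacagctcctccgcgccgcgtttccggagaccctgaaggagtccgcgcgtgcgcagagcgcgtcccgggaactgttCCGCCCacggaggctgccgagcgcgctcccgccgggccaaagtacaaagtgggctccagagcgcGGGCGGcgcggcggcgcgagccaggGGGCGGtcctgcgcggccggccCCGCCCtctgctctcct
ABCG2: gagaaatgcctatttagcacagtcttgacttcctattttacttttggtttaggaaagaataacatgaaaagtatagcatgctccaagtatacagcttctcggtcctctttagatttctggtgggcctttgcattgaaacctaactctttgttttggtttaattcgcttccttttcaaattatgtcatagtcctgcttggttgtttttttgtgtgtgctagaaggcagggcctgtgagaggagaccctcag
The ABCA1 window holds 3 GC boxes and 1 CACGTG at 61.6% G and C, and the ABCD3 window 4 GC boxes at 74.4%. The ABCA10 and ABCG2 windows hold none of these motifs, at 23.6% and 40.0%. RefSeq lists 5 starts for ABCG2, of which 2 have a GC box in the window and which reach 73.6% G and C, and 2 starts for ABCA10, neither with a GC box. Of the 32 members 26 were matched to a promoter, and ABCB4, ABCC1, ABCC3 and ABCG1 were among those that were not. A GC box stood in the first window of 17 of the 26 (65.4%), against 42.6% of 35116 promoters. The members count 1 window per gene, while the 35116 count every listed start, several for some genes. These shares and those that follow are therefore in unlike units. The E-box stood in 3 (6.35% of all promoters), the FOXO site in 3 (2.98%), the CCAAT box in 5 (32.0%), the cyclic AMP element in that of ABCE1 (1.65%), and the AP-1 site in none (6.57%). None of the motifs overlaps another in the printed windows. A match is a description of these letters, not a site.

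Subfamily A moves lipids. ABCA1, which loads cholesterol and phospholipid onto apolipoprotein A-I, rose with both knockdowns. It (ENSG00000165029.15) had 410.9, 1180 and 644.8 normalised reads in KD 86 and 1312, 1078 and 428.9 in KD 87, against 165.3, 374.7 and 173.4 in EV. Both knockdown groups lay above all 3 EV libraries, though EV replicate 2 came close to the lowest of each. Relative to EV, the log2 fold change was 1.62 (SE 0.494, 3.07-fold, adjusted p = 0.0269) with KD 86 and 1.93 (SE 0.494, 3.82-fold, adjusted p = 0.0330) with KD 87. With KD 86 the gene no longer passed without EV replicate 1 (adjusted p = 0.101), EV replicate 3 (0.0842), KD 86 replicate 2 (0.108) or KD 86 replicate 3 (0.0544). The KD 87 call was lost without EV replicate 1 (0.131), EV replicate 3 (0.0894), KD 87 replicate 1 (0.150) or KD 87 replicate 2 (0.107). With the replicate block both calls held (0.00188 with KD 86 and 0.00202 with KD 87). These values are limma's adjusted p.

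ABCA10 fell with both knockdowns. It (ENSG00000154263.17) is a member of the ABCA6-type cluster whose substrate is not settled, and it had 49.7, 40.6 and 58.9 normalised reads in KD 86 and 33.8, 40.5 and 50.2 in KD 87, against 165.3, 136.8 and 255.7 in EV. No library of either knockdown reached the lowest EV library. In log2 terms the change was -1.85 (SE 0.301, 3.60-fold lower, adjusted p = 0.00134) with KD 86 and -2.11 (SE 0.301, 4.30-fold lower, adjusted p = 0.00352) with KD 87. Both calls held in all 9 fits that each left out 1 library. In the GENCODE v29 annotation ABCA10 lies between ABCA6 and ABCA5 on chromosome 17, all 3 on the same strand, and the 3′ end of ABCA5 lies inside ABCA10, so reads there may be split. ABCA5 had a log2 fold change of -0.30 with KD 86 (adjusted p = 0.420) and -0.51 with KD 87 (adjusted p = 0.257).

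ABCA6, the other neighbour of ABCA10, was higher in KD 86. It had 23.4, 23.0 and 18.9 normalised reads in KD 86, or 24, 26 and 16 reads, against 3.35, 5.51 and 5.42 in EV, or 3, 6 and 5 reads. The groups did not overlap. In a limma fit of the EV and KD 86 libraries alone, added after the data were seen, the log2 fold change was 1.998 (SE 0.433). Its adjusted p was 0.00894 over 14225 genes, of which 31.2% were called. With so few EV reads, ABCA6 may have passed the authors' filter only through its KD 86 reads. The lack of overlap and this p-value would then not be independent of that filter, so they are given as description. In KD 87 ABCA6 is listed at 0, so no fold change is given.

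ABCA7, a phospholipid transporter and the site of risk alleles for Alzheimer's disease, and ABCA13, the longest of the subfamily, rose with KD 87. ABCA13 had 615.9, 481.2 and 298.9 normalised reads in KD 87 and 76.9, 82.1 and 90.8 in KD 86, against 78.2, 94.6 and 82.4 in EV. The KD 87 libraries did not overlap either of the other groups, while KD 86 and EV overlapped. The log2 fold change with KD 87 was 2.38 (SE 0.270, 5.21-fold, adjusted p = 0.00148), and with KD 86 it was -0.03 (adjusted p = 0.944). ABCA7 had 499.7, 695.5 and 506.7 normalised reads in KD 87 and 118.8, 261.4 and 169.7 in KD 86, against 112.8, 190.1 and 195.0 in EV, and again KD 87 alone stood apart. Its log2 fold change with KD 87 was 1.79 (SE 0.319, 3.46-fold, adjusted p = 0.00815), and with KD 86 it was 0.11 (adjusted p = 0.812). The difference between the knockdowns, KD 86 over KD 87, was -2.41 for ABCA13 (adjusted p = 0.000303) and -1.68 for ABCA7 (adjusted p = 0.00373), all by limma. Both calls of both genes held in all 9 fits that each left out 1 library. ABCA2, ABCA3 and ABCA5 did not pass the threshold in any of the comparisons, with or without the replicate block. With the transcript length trend removed and the block together, subfamily A had 4 calls with KD 86 and 5 with KD 87, some of these genes among them. Of all genes, 54.8% and 34.7% were called in that fit.

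Subfamily B holds drug and peptide pumps of the plasma membrane, the endoplasmic reticulum and lysosomes, and mitochondrial half-transporters. ABCB4, which moves phosphatidylcholine to the outer leaflet of the bile canalicular membrane, had the largest fold change of the members in each comparison with EV. It (ENSG00000005471.15) had 88.6, 220.8 and 167.4 normalised reads in KD 86 and 127.8, 166.1 and 91.1 in KD 87, against 7.82, 10.1 and 8.67 in EV, or 91, 250 and 142 and 121, 193 and 89 reads against 7, 11 and 8. Every knockdown library lay above every EV library. The log2 fold change was 3.93 (SE 0.366, 15.2-fold, adjusted p = 8.12e-05) with KD 86 and 3.68 (SE 0.366, 12.8-fold, adjusted p = 0.000669) with KD 87, and the knockdowns differed by 0.25 (95% interval -0.56 to 1.06, adjusted p = 0.664). Both calls with EV held in all 9 fits that each left out 1 library. The EV and KD 86 libraries appear to have been filtered as 1 set. With so few EV reads, ABCB4 may have passed the authors' filter there only through its KD 86 reads. The lack of overlap with EV and the p-values against EV would then not be independent of that filter, so they are given as description.

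ABCB1, the drug-efflux pump P-glycoprotein, is the neighbour of ABCB4 on chromosome 7, on the same strand. It had 150.9, 158.1 and 115.5 normalised reads in KD 86 and 90.9, 99.0 and 56.3 in KD 87, against 84.9, 114.8 and 43.3 in EV. The KD 86 libraries lay above all EV libraries, narrowly for KD 86 replicate 3, while KD 87 overlapped EV. On the log2 scale it was 0.89 with KD 86 (adjusted p = 0.0801) and 0.08 with KD 87 (adjusted p = 0.907). With the replicate block the KD 86 value passed the threshold (adjusted p = 0.00583) and KD 86 exceeded KD 87 by 0.81 (adjusted p = 0.0128 with the block and 0.133 without, by limma).

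ABCB9, the lysosomal peptide transporter TAPL, had 1602, 1402 and 1032 normalised reads in KD 87 and 940.6, 1152 and 947.7 in KD 86, against 678.1, 887.1 and 714.1 in EV. Both knockdowns lay above all EV libraries. Relative to EV, the log2 fold change was 0.81 with KD 87 (SE 0.210, 1.75-fold, adjusted p = 0.0351) and 0.42 with KD 86 (adjusted p = 0.143, and 0.0478 with the replicate block). With KD 87 the gene no longer passed without EV replicate 1 (adjusted p = 0.121), EV replicate 3 (0.0809), KD 86 replicate 2 (0.0529), KD 86 replicate 3 (0.0539), KD 87 replicate 1 (0.158) or KD 87 replicate 2 (0.117), and also with no variance trend (0.0510) and with the EV and KD 87 libraries alone (0.0780). The KD 87 call held with the replicate block (limma, adjusted p = 0.00459).

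ABCB10, a half-transporter of the mitochondrial inner membrane needed for haem synthesis, fell with KD 87, where it had 328.6, 440.7 and 474.9 normalised reads, with 1079, 857.5 and 928.8 in KD 86, against 894.8, 933.9 and 892.9 in EV. The KD 87 libraries lay below all others, and KD 86 overlapped EV. In log2 terms the change was -1.14 with KD 87 (SE 0.191, 2.21-fold lower, adjusted p = 0.00638) and 0.07 with KD 86 (adjusted p = 0.807), and KD 86 exceeded KD 87 by 1.21 (SE 0.191, adjusted p = 0.00143). Its KD 87 calls, against EV and against KD 86, held in all 9 fits that each left out 1 library. ABCB6 and ABCB8 did not pass in any comparison, and ABCB8 passed with the block, at a log2 fold change of -0.60 with KD 86 (adjusted p = 0.00757, with 0.0599 without it and 0.00865 with the length trend removed).

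Subfamily C exports conjugates, drugs and cyclic nucleotides, and ABCC9 is a channel regulator. Of its 7 members, 3 rose with KD 86, against 18.0% of all genes, and 0 of 7 passed with KD 87, against 10.4%. At an unadjusted p under 0.05 by limma, 2 of 7 (ABCC1 and ABCC5) passed with KD 87. The share of all genes at that unadjusted threshold is not given. With the replicate block 3 of 7 passed with KD 86 and 3 of 7 with KD 87 (ABCC1, ABCC2 and ABCC5), against 55.3% and 31.0% of all genes. ABCC4, which exports cyclic nucleotides and prostaglandins, had 1621, 1412 and 1158 normalised reads in KD 86 and 771.2, 718.8 and 456.5 in KD 87, against 554.1, 793.4 and 499.5 in EV. KD 86 stood apart from both other groups. The log2 fold change was 1.20 with KD 86 (SE 0.257, 2.29-fold, adjusted p = 0.00539) and 0.07 with KD 87 (adjusted p = 0.892), and KD 86 exceeded KD 87 by 1.13 (SE 0.257, adjusted p = 0.00948). Both KD 86 calls held in all 9 fits that each left out 1 library.

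ABCC10, a multidrug resistance protein, had 488.8, 729.4 and 488.0 normalised reads in KD 86 and 355.0, 418.4 and 239.5 in KD 87, against 125.1, 341.6 and 217.8 in EV. Its log2 fold change was 1.40 with KD 86 (SE 0.356, 2.65-fold, adjusted p = 0.0120) and 0.64 with KD 87 (adjusted p = 0.272), and the KD 86 call was lost without KD 86 replicate 2 (0.0541). That call held with the replicate block (limma, adjusted p = 0.000522). KD 86 and KD 87 did not overlap, and the difference of 0.76 passed with the replicate block (adjusted p = 0.0217) and not without it (0.144). DLK2 overlaps the 3′ end of ABCC10 on the other strand, and the strand setting of the counting is not given in the sources used here. ABCC5, an exporter of cyclic nucleotides and organic anions, had 918.2, 982.9 and 674.2 in KD 86 and 1021, 1155 and 573.2 in KD 87, against 388.8, 630.0 and 439.9 in EV. KD 86 lay above EV and KD 87 overlapped it. On the log2 scale it was 0.83 with KD 86 (SE 0.293, 1.78-fold, adjusted p = 0.0475) and 0.88 with KD 87 (adjusted p = 0.0812, and 0.00582 with the block). The KD 86 call of ABCC5 was lost without EV replicate 1 (0.155), EV replicate 3 (0.115), KD 86 replicate 1 (0.117), KD 86 replicate 2 (0.152) or KD 87 replicate 1 (0.0616), with the deposited scaling (0.0502), with no variance trend (0.0630) and with the length trend removed (0.103). The same call held with the replicate block (limma, adjusted p = 0.00315). The KD 87 value of ABCC5 passed without EV replicate 2 (0.0312) or KD 87 replicate 3 (0.0229).

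ABCC1, the glutathione-conjugate and drug exporter MRP1, had 1074, 1254 and 1077 normalised reads in KD 86 and 494.4, 753.2 and 672.5 in KD 87, against 854.6, 1403 and 942.7 in EV. KD 87 lay below both other groups. KD 86 exceeded KD 87 by 0.84 (SE 0.234, 1.80-fold, adjusted p = 0.0230), a call lost without KD 86 replicate 1 (0.0522), KD 86 replicate 2 (0.0880) or KD 87 replicate 1 (0.0919). That call held with the replicate block (limma, adjusted p = 0.00113). Against EV the log2 fold change was -0.72 with KD 87 (adjusted p = 0.0738, 0.00573 with the replicate block and 0.0113 with the length trend removed) and 0.12 with KD 86 (adjusted p = 0.715). ABCC3 and ABCC9 did not pass the threshold in any comparison, with or without the block. With the length trend removed and the block together, subfamily C had 1 lower call with KD 86 (ABCC3) and 2 with KD 87 (ABCC1 and ABCC3). The log2 fold changes of ABCC3 with the length trend removed were -0.66 and -0.52. ABCC2, an exporter of conjugates, passed with KD 87 with the replicate block, at a log2 fold change of 0.64 (adjusted p = 0.0344 with the block and 0.210 without).

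**Figure D2:**
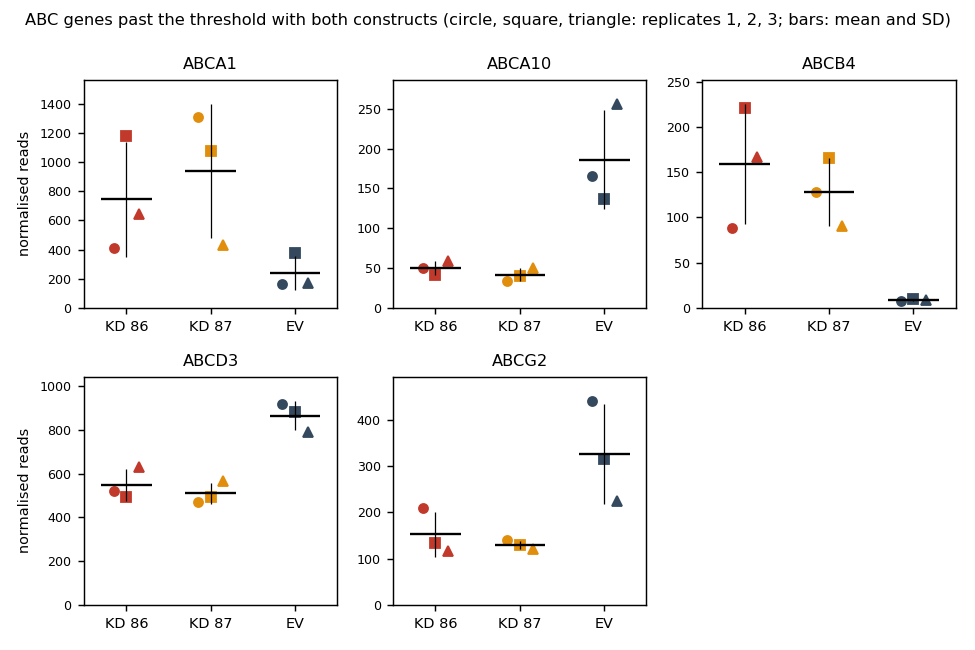
Normalised reads (vertical axis) in each library of KD 86, KD 87 and EV for ABCA1, ABCA10, ABCB4, ABCD3 and ABCG2; bars show the mean and SD of 3 libraries. ABCA1 and ABCB4 are higher in the knockdowns and ABCA10, ABCD3 and ABCG2 lower, with the knockdown libraries on 1 side of the EV libraries for each gene plotted.

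In subfamily D, ABCD3 carries fatty acids into peroxisomes and ABCD4 moves cobalamin out of lysosomes. ABCD3, the peroxisomal membrane protein PMP70, fell with both knockdowns. It (ENSG00000117528.11) had 519.0, 495.4 and 633.0 normalised reads in KD 86 and 472.2, 492.4 and 565.0 in KD 87, against 921.6, 883.4 and 792.1 in EV, with no overlap. Relative to EV, the log2 fold change was -0.66 (SE 0.177, 1.58-fold lower, adjusted p = 0.0155) with KD 86 and -0.76 (SE 0.177, 1.70-fold lower, adjusted p = 0.0230) with KD 87. The KD 86 call was lost without KD 86 replicate 2 (0.0724). The KD 87 call was lost without EV replicate 1 (0.0815), KD 87 replicate 1 (0.105) or KD 87 replicate 2 (0.0897), and with EV and KD 87 alone (0.0533). Both calls held with the replicate block (limma, adjusted p = 0.00401 with KD 86 and 0.00468 with KD 87). ABCD4, the cobalamin transporter, had 126.6, 232.2 and 251.1 in KD 86 and 282.1, 397.7 and 472.9 in KD 87, against 290.5, 325.1 and 460.5 in EV. KD 86 lay below both other groups. The difference, KD 86 over KD 87, was -0.94 (SE 0.310, 1.93-fold lower, adjusted p = 0.0463), and was lost without EV replicate 1 (0.0556), KD 86 replicate 1 (0.156), KD 86 replicate 2 (0.0695), KD 87 replicate 2 (0.119) or KD 87 replicate 3 (0.145) and with no variance trend (0.0575). It held with the replicate block (limma, adjusted p = 0.00119). Against EV the log2 fold change of ABCD4 was -0.85 with KD 86 (adjusted p = 0.0537, with 0.00173 with the block and 0.0358 with the length trend removed).

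Subfamilies E and F act in translation. ABCE1, which splits ribosomes after termination, had 2092, 1537 and 1617 normalised reads in KD 86 and 1988, 2051 and 2426 in KD 87, against 2894, 2691 and 2498 in EV. Both knockdowns lay below EV. In log2 terms the change was -0.63 (SE 0.183, 1.55-fold lower, adjusted p = 0.0213) with KD 86 and -0.32 (adjusted p = 0.281) with KD 87. The KD 86 call was lost without EV replicate 1 (0.0657), KD 86 replicate 2 (0.0954) or KD 86 replicate 3 (0.0720) and with EV and KD 86 alone (0.0501). It held with the replicate block (limma, adjusted p = 0.00539). OTUD4 overlaps the 3′ end of ABCE1 on the other strand. None of ABCF1, ABCF2 and ABCF3, of which ABCF1 is known in translation initiation, passed in any comparison by limma, with or without the block. At an unadjusted p under 0.05 without the block it was 0 of 3. Their log2 fold changes against EV ran from -0.14 to 0.25 with KD 86 and from 0.02 to 0.42 with KD 87. With the length trend removed and the block together, 1 of 3 was called higher with KD 87, where 34.7% of all genes were called in either direction.

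Subfamily G exports sterols, drugs and urate. ABCG2, the breast cancer resistance protein, fell with both knockdowns. It (ENSG00000118777.10) had 208.4, 133.3 and 116.7 normalised reads in KD 86 and 139.5, 128.3 and 120.8 in KD 87, against 440.1, 315.9 and 224.3 in EV. No knockdown library reached the lowest EV library. The log2 fold change was -1.08 (SE 0.293, 2.12-fold lower, adjusted p = 0.0160) with KD 86 and -1.28 (SE 0.293, 2.42-fold lower, adjusted p = 0.0222) with KD 87. The KD 86 call was lost without EV replicate 1 (0.0662), KD 86 replicate 2 (0.0619) or KD 86 replicate 3 (0.0572), and the KD 87 call without EV replicate 1 (0.0895), KD 87 replicate 1 (0.0763) or KD 87 replicate 2 (0.0715). Both calls held with the replicate block (limma, adjusted p = 0.000801 with KD 86 and 0.00101 with KD 87). ABCG1, which passes cholesterol to high-density lipoprotein, had 13.7, 17.2 and 21.5 in KD 87 and 34.1, 60.1 and 62.5 in KD 86, against 49.2, 58.8 and 50.9 in EV. KD 87 lay below both, and KD 86 overlapped EV. Its log2 fold change was -1.56 with KD 87 (SE 0.326, 2.95-fold lower, adjusted p = 0.0152) and -0.07 with KD 86 (adjusted p = 0.895), and KD 86 exceeded KD 87 by 1.50 (SE 0.326, adjusted p = 0.00753). The call against EV was lost without EV replicate 1 (0.0507), KD 87 replicate 1 (0.0733) or KD 87 replicate 2 (0.0538), and the difference between knockdowns held in all 9 such fits. With the replicate block the KD 87 call against EV held (limma, adjusted p = 0.00208). ABCG4, a sterol exporter, is listed at 0 in KD 87 and had 9.74, 15.9 and 17.7 in KD 86, against 14.5, 16.5 and 4.33 in EV (log2 fold change 0.41, adjusted p = 0.603 in the added fit of those groups).

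**Figure D3:**
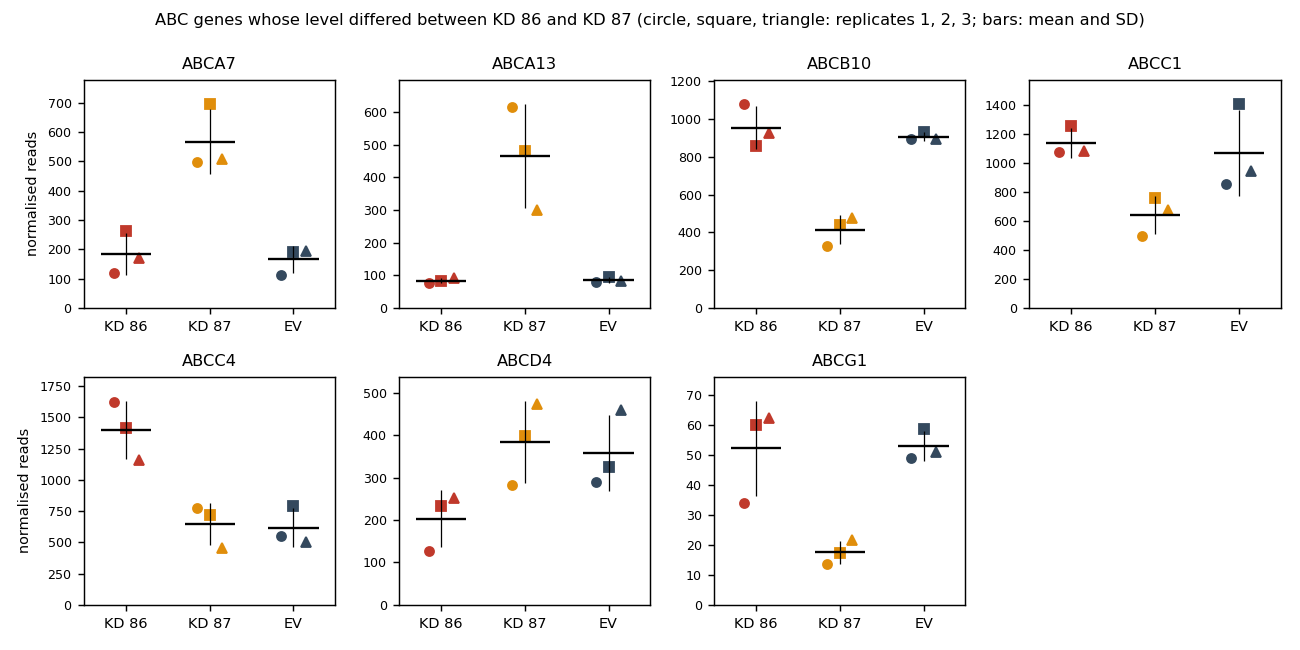
Normalised reads (vertical axis) in each library of KD 86, KD 87 and EV for 7 ABC genes that passed the threshold between KD 86 and KD 87; bars show the mean and SD of 3 libraries. ABCA7, ABCA13 and ABCD4 are lower in KD 86 than in KD 87, and ABCB10, ABCC1, ABCC4 and ABCG1 higher.

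Summed within a library, subfamily G had 252.2, 209.3 and 196.8 normalised reads in KD 86 and 153.2, 145.5 and 142.3 in KD 87, against 503.8, 391.2 and 279.6 in EV. These sums, mostly ABCG2, did not overlap between any of the groups, and ABCG4 adds 0 in KD 87. ABCE1 is the whole of subfamily E and also lay below EV. Subfamily A summed to 1125, 2587 and 1871 in KD 86 and 3513, 3695 and 2108 in KD 87, against 1105, 2162 and 1493 in EV, and overlapped. Subfamily B was above EV in all KD 86 libraries, at 3202, 3368 and 3023 against 2622, 2924 and 2557, while KD 87, at 2896, 3052 and 2395, overlapped EV. Subfamilies C, D and F overlapped between the groups.

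**Figure D4:**
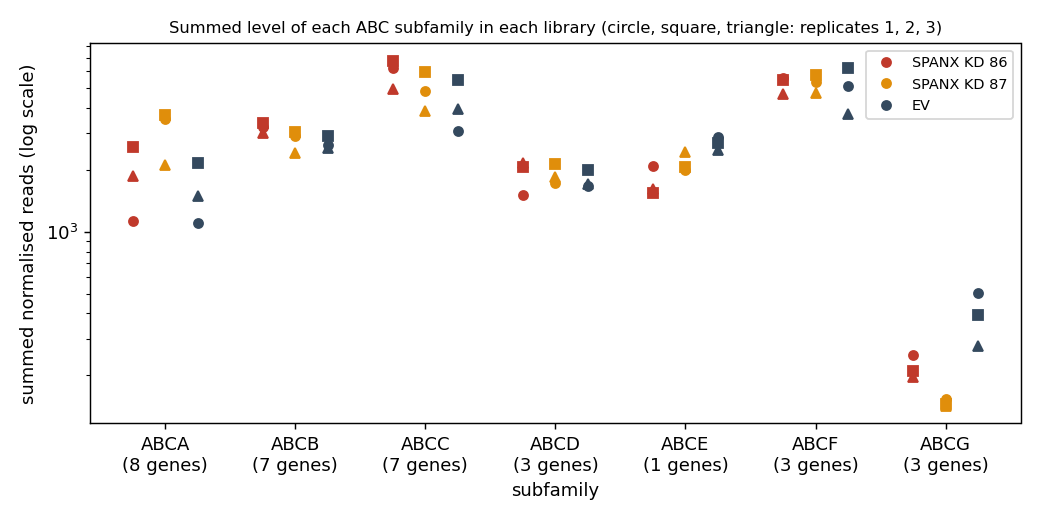
Summed normalised reads (vertical axis, log scale) of the members of each ABC subfamily in each library of KD 86, KD 87 and EV. Subfamily G lies at 197 to 252 in KD 86 and 142 to 153 in KD 87, below 280 to 504 in EV.

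The 11 tested members not described by name above in full, ABCA2, ABCA3, ABCA5, ABCB6, ABCB8, ABCC2, ABCC3, ABCC9 and the 3 ABCF genes, had log2 fold changes of -0.60 to 0.53 with KD 86 (adjusted p 0.0599 to 0.839) and -0.51 to 0.79 with KD 87 (0.210 to 0.967) and differed between the knockdowns by -0.67 to 0.21 (0.242 to 0.971). Member transcripts have a median length of 4933 bases (2624 to 17184), against 3281 over the tested genes with a length. With the length trend of each library removed, 11 members passed with KD 86 (5 rose, 6 fell), 12 with KD 87 (6 rose, 6 fell) and 9 between them, against 36.9% of all genes (18.1% rose, 18.8% fell), 14.6% (7.39% rose, 7.23% fell) and 29.8%, and the members' median for KD 86 was -0.07 in place of 0.12. With the length trend removed and the replicate block together, 17, 17 and 13 members passed, against 54.8%, 34.7% and 47.3% of all genes.

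**Figure D5:**
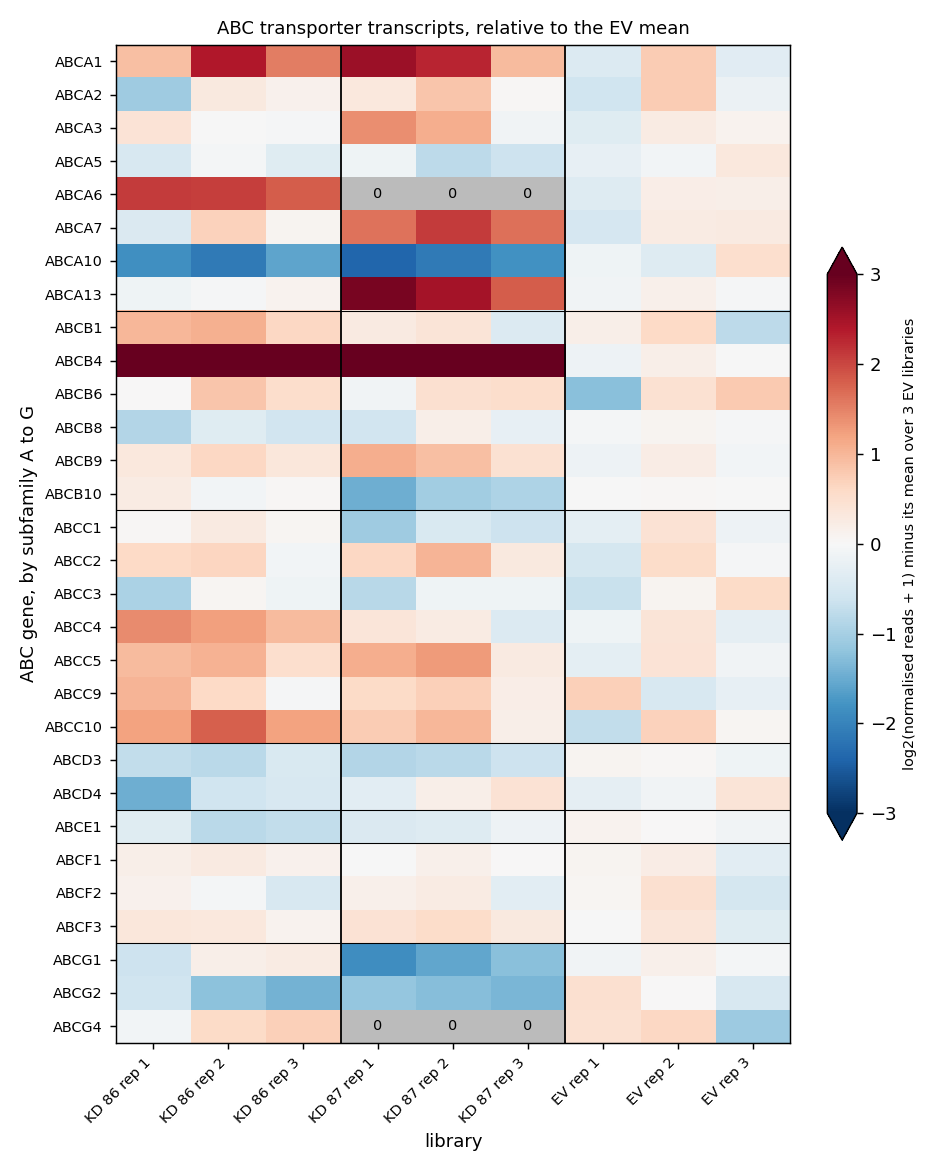
Log2(normalised reads + 1) of 30 members (rows, by subfamily) in each of the 9 libraries (columns), minus its mean over the EV libraries; red is above that mean, blue below, and grey cells are values listed at 0. The ABCB4 row exceeds the colour scale in all knockdown libraries.

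Genes that work with the transporters were described by count. Counts at the adjusted threshold are to be read against the shares of all genes. Of all genes, 18.0% rose and 17.6% fell with KD 86, and 5.92% rose and 4.43% fell with KD 87. For limma's unadjusted p under 0.05 no share of all genes is given, so those counts cannot be called high or low. Of 15 genes of sterol control and of acceptors of ABCA1 and ABCG1, 3 rose and 5 fell with KD 86, and 0 rose and 2 fell with KD 87 (8 of 15 at an unadjusted p under 0.05, by limma). MYLIP, which targets the LDL receptor for degradation, had 706.9, 553.7 and 397.2 normalised reads in KD 86 and 258.8, 183.4 and 166.8 in KD 87, against 124.0, 118.5 and 149.5 in EV, and its log2 fold change was 2.04 with KD 86 (adjusted p = 0.000382) and 0.61 with KD 87 (0.157, and 0.0494 with the block). Of 9 transcription factors of drug-efflux genes, 4 rose and 1 fell with KD 86 and 1 rose with KD 87. FOXO1 rose with both, by 1.43 (adjusted p = 0.00218) and 1.39 (0.00951), and FOXO3 with KD 86, by 1.16 (0.00333), with 0.67 in KD 87 (0.0853, and 0.0173 with the block).

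Among 6 peptide-loading genes, TAP1 and TAP2 included, 2 rose with KD 86 and 0 passed with KD 87 (3 at an unadjusted p under 0.05, by limma): TAPBP, the tapasin that bridges TAP to HLA class I, by 1.83 (adjusted p = 0.00225) with KD 86, against a value of 1.16 (0.0502) with KD 87, and PDIA3, a disulphide isomerase of the loading complex, by 0.92 (0.00421) with KD 86, against -0.15 (0.632) with KD 87. Of 14 peroxisome genes, 1 rose and 4 fell with KD 86 and 0 passed with KD 87 (5 at an unadjusted p under 0.05). PEX5, the import receptor of the peroxisome matrix, fell by 1.00 on the log2 scale with KD 86 (adjusted p = 0.00158), with 0.08 in KD 87 (0.778), and ACSL1, an acyl-CoA synthetase, rose by 1.85 with KD 86 (0.00218), with 1.07 in KD 87 (0.0671). Of 11 glutathione genes, 1 rose and 3 fell with KD 86, among them MGST1 (-1.73, 0.00668) and GSTP1 (-0.92, 0.0171), and 0 passed with KD 87 (3 unadjusted). Of 12 genes of iron-sulphur clusters and haem, 1 rose with KD 86, the mitochondrial iron carrier SLC25A28 (0.73, 0.0122), and ALAS1 had 0.57 (0.0522). None of the 12 passed with KD 87 (2 unadjusted). Of 11 genes of ribosome recycling and translation control, EIF6 (-0.85, 0.0116) and GSPT1 (-0.68, 0.0128) fell with KD 86 and 0 passed with KD 87 (2 unadjusted). With the length trend removed EIF6 had -0.47 (0.139) and GSTP1 -0.44 (0.109) with KD 86, and neither passed. KCNJ8, the channel partner of ABCC9 that was measured, rose with KD 86 (0.69, adjusted p = 0.0427), with -0.37 in KD 87 (0.337, and 0 at an unadjusted p under 0.05). The log2 fold changes and p-values in parentheses are limma's.

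The replicate block raised most of these counts. With KD 86 it called 9 of the 15 sterol genes, 8 of the 9 transcription factors, 2 of the 6 peptide-loading genes, 7 of the 14 peroxisome genes, 6 of the 11 glutathione genes, 4 of the 12 iron-sulphur and haem genes and 5 of the 11 translation genes, against 55.3% of all genes. With KD 87 it called 9, 3, 3, 4, 3, 3 and 3 of the same lists, against 31.0% of all genes. With KD 87, TAPBP (adjusted p = 0.000936), ACSL1 (0.00304), MGST1 (0.0109), ALAS1 (0.0125) and GSPT1 (0.0387) passed with the block by limma and not without it. ALAS1 also passed with KD 86 with the block (0.00694) or with the length trend removed (0.0295). TAPBP (0.0228) and GSPT1 (0.0486) passed with KD 87 with the length trend removed.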

How the data were processed

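RNA of 9 A375 libraries was measured with QuantSeq 3′ mRNA sequencing. The deposited values, 1 table per library, are a score: per the file headers normalised read counts, which by their spacing are reads scaled by 1 constant per library and rounded by the authors. Per the submitters' processing notes STAR, featureCounts, Subread and edgeR and the build hg19 were used. Versions, settings, strand and roles are not given in the sources used here. Because whole libraries appear to have been filtered and scaled in 2 sets (400 gene IDs exceed 0 in just the EV and KD 86 tables, 453 in just those of KD 87), the constant was recovered, and the reads were rescaled over all 9 libraries with the TMM formula (trimming 30% of log ratios and 5% of abundances). No column was left unmapped. Totals of 11310750 to 15564093 recovered reads per library set the precision of low genes.

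The 13825 gene IDs above 0 in all groups were tested with limma 3.58.1 in R 4.3.3 on log2(value + 1), with a variance trend and 1 coefficient per group (6 residual degrees of freedom), two-sided, with Benjamini-Hochberg adjustment over all genes. The planned count test was not run, since the deposited values are scaled and rounded. Replicates of a group correlated at r of 0.937 to 0.979 over genes. Libraries with the same replicate number deviated together from their group means (r of 0.215 to 0.722 for the 9 same-number pairs and -0.644 to 0.14 for the others, over 13819 genes), so the numbers pair the libraries. This comes from the data, the labels giving only the numbers. The script was tested on simulated data. Alternatives were pseudocounts of 0.5 and 4, other scalings, a mean of at least 10 reads, no variance trend, the 2 groups compared alone, the replicate block, a length trend removed (a spline with 4 degrees of freedom, GENCODE v29 lengths), both together, and each library left out in turn.

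Members and supporting lists were chosen with earlier results of these data known. Named are the members past the threshold in any comparison, ABCA1, ABCB1, ABCB4, ABCC1, ABCE1, ABCG1 and ABCG2 in any case, and members at 0 in a whole group, and of each supporting list up to 2 genes with the smallest adjusted p. Some genes that this rule names are counted but not reported here by name. Symbols come from the deposited tables, and promoters from RefSeq on GRCh38.p14, a build other than the authors' hg19.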

Additional observations from a re-analysis of the deposited data

Results flagged for a closer look

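The change relative to EV differed between the knockdowns for the ABC genes given here by limma's test of the difference (adjusted over 13825 genes). KD 86 minus KD 87, on the log2 scale, was -2.41 for ABCA13 (adjusted p = 0.000303), -1.68 for ABCA7 (0.00373) and -0.94 for ABCD4 (0.0463). It was 1.50 for ABCG1 (0.00753), 1.21 for ABCB10 (0.00143), 1.13 for ABCC4 (0.00948) and 0.84 for ABCC1 (0.0230).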

How the results depend on the processing

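The numbers of members past the threshold were 10 with KD 86 against EV, 10 with KD 87 against EV and 8 between the knockdowns (against 35.6%, 10.4% and 25.5% of all genes). With the replicate block they were 15, 14 and 10 (against 55.3%, 31.0% and 44.1%). With the length trend removed and the replicate block together they were 17, 17 and 13 (against 54.8%, 34.7% and 47.3%). Leaving out 1 library in turn gave 3 to 11, 5 to 13 and 5 to 8. The shares of all genes called in the fits without 1 library are not given. These counts are therefore not set against those of all genes, and whether they moved more or less was not tested. With KD 86 against EV, 5 passed without EV replicate 1 and 3 without KD 86 replicate 2, with KD 87 against EV 5 without EV replicate 1, KD 87 replicate 1 or KD 87 replicate 2, and between the knockdowns 5 without KD 86 replicate 1 or 2. Of 28 calls of named members, 13 held in all 9 such fits, and 23 held in every other alternative, the 2 groups compared alone included. The block gained 9 calls of named members and lost 0. Over 1102 values of named members under the alternatives, 1016 kept their side of the threshold, 58 lost a call and 28 gained one. In 0 of them did the sign change with a call in either fit. A change of sign with no call in either fit was counted as kept. Without 1 library, for example, the log2 fold change of ABCA7 with KD 86 ran from -0.18 to 0.38. Where calls were lost or gained the cause was not tested. The count test was not run. Low genes are limited by depth: ABCA6 rests on 3 to 26 reads per library outside KD 87, and ABCB4 on 7 to 11 in EV.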
